A study of Caenorhabditis elegans with 4 samples.

Results

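Broad COH-1 peaks are the regions of the Caenorhabditis elegans genome where the cohesin subunit COH-1 was called over 5 kb or more without a break. They were chosen by their measured width, last base minus first base plus 1, in each of 2 deposited peak lists of a chromatin immunoprecipitation sequencing (ChIP-seq) experiment. The list of replicate 1 held 329 broad peaks among 2964, and that of replicate 2 held 250 among 2302, which makes 579 of 5266 peaks in all. The remaining 2635 and 2052 peaks are called narrower peaks here. The lists were kept apart, and positions are in WormBase build WS220.

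All libraries came from adult hermaphrodites of the strain fem-2(b245), which carries the b245 allele of fem-2 on chromosome III and was kept at 20 °C. There was no wild-type or treated group, so the mutation is shared by every library. The stage is given as a young adult with a germline in one label, and the growth protocol speaks of gravid worms floated on sucrose. Whole worms were ground, so a peak sums over all their tissues. Of 4 libraries, 2 held DNA recovered with a polyclonal anti-COH-1 antibody raised in rabbit, and 2 were of input DNA and were not analysed here. The labels do not say whether the replicates came from separate cultures, so the spread over n = 2 lists may be technical.

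Cohesin is a ring of SMC-1, SMC-3 and a kleisin that closes it, with SCC-3 bound to the kleisin. The ring holds sister chromatids together and, in interphase, extrudes and anchors loops of DNA. C. elegans has several kleisins: REC-8, COH-3 and COH-4 serve meiosis, SCC-1 serves mitosis, and COH-1 is a kleisin of somatic cells. The nematode lacks a CTCF gene, whose product stops cohesin at fixed sites in vertebrates.

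The lists gave each peak a position and the score that the peak caller MACS attached to it, but no read counts, so the depth behind a peak is unknown. The score was ranked within a list only. Across lists it enters as a correlation over matched pairs and as values printed side by side at the same sites. Broad peaks are given by position only, as neither sequence nor genes of their build were used. The deposited names of the lists carry unexplained tags, BC299 for replicate 1 and csr1 for replicate 2.

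Broad peaks were a small part of each list by number and a large part by length. They made up 11.1% of the peaks and 41.3% of the covered bases in replicate 1, or 3.23 of 7.83 Mb. In replicate 2 these shares were 10.9% and 35.9%, or 2.10 of 5.85 Mb. The mean over the lists was 10.98% ± 0.17 of peaks and 38.6% ± 3.79 of bases (SD, n = 2). The share by number was thus close in both lists, although replicate 1 had 79 more broad peaks.

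Broad peaks were wider in replicate 1 than in replicate 2. In replicate 1 the median width was 8477 bp, with quartiles of 6084 and 12018 bp. In replicate 2 it was 7084 bp, with quartiles of 5957 and 9514 bp. Peaks of 10 kb or more numbered 129 in replicate 1 and 57 in replicate 2, and those of 20 kb or more numbered 9 and 1. The threshold fell on a continuous range of widths. Just inside it, replicate 1 had peaks of 5009 and 5020 bp, both on X, and just outside it peaks of 4996 and 4974 bp, both on V. In replicate 2 the corresponding widths were 5016 and 5031 bp inside and 4983 and 4972 bp outside.

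Width and score come from the same peak call, and their relation is given as a description. The median score of broad peaks was 737 in replicate 1 and 2724 in replicate 2, against 106.8 and 218 among narrower peaks. Of the broad peaks, 216 in replicate 1 (65.7%) and 157 in replicate 2 (62.8%) were among the strongest 10% of their list. A score of 3100 or more was reached by 7 peaks of replicate 1, all broad, and by 144 of replicate 2, of which 116 were broad. In replicate 2, 136 peaks, 110 of them broad, were tied at exactly 3100, so that value does not rank them. The score did not keep rising with width. In replicate 1 its median was 663 for peaks of 5 to 7 kb, 1019 at 7 to 10 kb, 882 at 10 to 15 kb and 540 in the 44 peaks of 15 kb or more. In replicate 2 it was 3100, 2624, 1342 and, over 15 peaks, 1068 in the same classes, and the first value rests on ties at 3100 in 63 of 124 peaks.

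A minority of broad peaks was weak for its list. In replicate 1, 16 broad peaks scored below the list's median of 118.97, and in replicate 2, 14 scored below 257. This subset was picked after its values were seen. It was wide, with median widths of 13778 and 13378 bp, against 8298 and 6924 bp for the other broad peaks. Of the 20 widest peaks, 4 in each list belonged to it. Of the 16 in replicate 1, 9 overlapped 3 or more peaks of replicate 2, as did 71 of the other 313. Of the 14 in replicate 2, 2 overlapped 3 or more peaks of replicate 1, as did 19 of the other 236. These counts were not matched for width, and wide peaks meet others more easily.

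**Figure D1:**
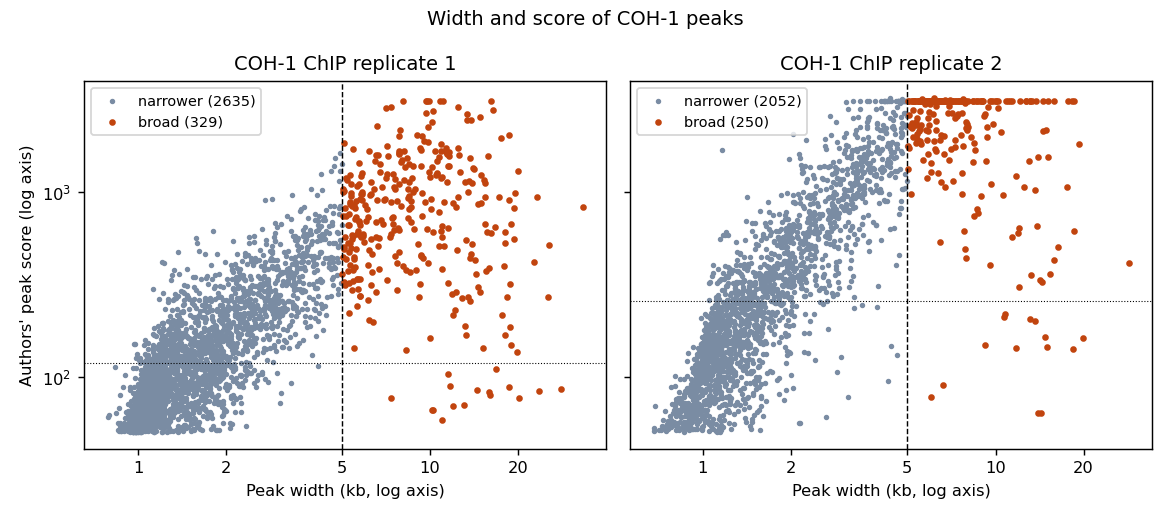
Width (kb) and authors' score of each peak in each list, both on log axes. The dashed line marks 5 kb and the dotted line the median score of the list (118.97 in replicate 1, 257 in replicate 2). Broad peaks lie at the upper right, with 16 of 329 and 14 of 250 below the dotted line.

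The widest peak of both lists was the same place on V. It spanned V:6208375-6241668 in replicate 1, 33.3 kb with a score of 826, and V:6213090-6241604 in replicate 2, 28.5 kb with a score of 414. The right ends differed by 64 bp and the left ends by 4715 bp. A further replicate 2 peak of 3.38 kb covered most of the rest, so that 95.8% of the replicate 1 peak lay inside replicate 2 peaks.

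Below this site the orders of the lists parted. The next 4 peaks of replicate 1 were II:10538256-10566346 (28.1 kb, score 85.3), V:10707309-10732793 (25.5 kb, score 518), III:5930141-5955515 (25.4 kb, score 268) and III:7715823-7739381 (23.6 kb, score 83.96). Those on II and at V:10707309 overlapped no peak of replicate 2. The peak at III:5930141 was 96.6% covered, by 2 broad peaks of replicate 2, the wider of which, III:5930716-5949213, was the fifth widest of that list with a score of 3100.

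The 10 widest peaks of replicate 2 all overlapped a broad peak of replicate 1, while 6 of the 10 widest of replicate 1 overlapped a broad peak of replicate 2. After the site on V, those of replicate 2 were led by II:9593501-9613471 (19.97 kb, score 162), I:7075150-7094449 (19.3 kb, score 1827) and II:14031227-14049751 (18.5 kb, score 610). Replicate 1 covered 74.4%, 93.6% and 97.7% of their bases. The widest peak of IV was IV:4013564-4032960 in replicate 1 (19.4 kb) and IV:10813517-10829316 in replicate 2 (15.8 kb). The former was 15.8% covered by the other list and the latter 94.6%. On I, by contrast, the widest peak was the same site in both lists, with I:7074290-7093217 in replicate 1 (18.9 kb, score 666).

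Broad peaks lay on all 6 nuclear chromosomes, and a smaller share of them than of the narrower peaks was on X. In replicate 1, 63 of 329 broad peaks were on X, 19.1% (exact 95% interval 15.04% to 23.8%), against 730 of 2635 narrower peaks, 27.7%. The difference of -8.55 percentage points passed the test (odds ratio 0.62, 95% interval 0.46 to 0.83; two-sided Fisher's exact p = 0.00075, Benjamini-Hochberg adjusted over 10 tests 0.0019). In replicate 2, 38 of 250 broad peaks were on X, 15.2% (10.99% to 20.3%), against 431 of 2052, 21.0%. That difference of -5.80 points had an odds ratio of 0.67 (0.46 to 0.97; two-sided Fisher's exact p = 0.031) and missed the threshold after adjustment (adjusted p = 0.051). The mean difference was -7.18 ± 1.95 points (SD, n = 2).

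Seen per length, X stood out by its narrower peaks. Replicate 1 had 3.57 broad peaks per Mb on X and 3.23 on the autosomes, a ratio of 1.11, while for narrower peaks the densities were 41.4 and 23.1 per Mb, a ratio of 1.79. Replicate 2 had 2.15 and 2.57 broad peaks per Mb, a ratio of 0.84, and 24.4 and 19.7 narrower peaks per Mb, a ratio of 1.24. These tests count each peak as independent, while peaks cluster, and they compare peaks within 1 library. In replicate 2 the difference on X was -4.10 points among the stronger 50% of the list (Fisher's exact test, two-sided, p = 0.163) and -2.18 points after merging within 10 kb (p = 0.588), where in replicate 1 it was -9.83 and -7.18 points (p = 0.00043 and 0.019).

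Among the autosomes, III had the most broad peaks per Mb in both lists, 4.14 in replicate 1 and 3.92 in replicate 2. IV had the fewest, 2.63 and 1.77. By length, broad peaks covered 41.9 kb per Mb of III in replicate 1 and 30.6 in replicate 2, against 23.7 and 14.8 on IV. The share of broad peaks on III was 17.3% in replicate 1, where 14.2% of narrower peaks lay, and 21.6% against 15.8% in replicate 2. Neither difference passed (Fisher's exact test, two-sided, adjusted over 6 chromosomes p = 0.27 and 0.092). Of the 6 chromosomes in both lists, X in replicate 1 alone passed (adjusted Fisher's exact p = 0.0045).

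**Figure D2:**
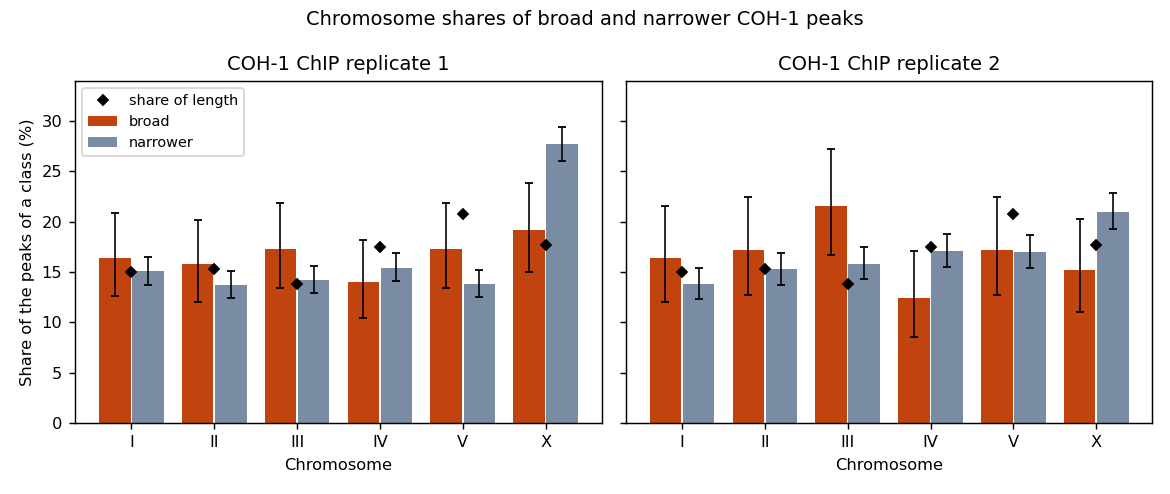
Share of the broad peaks and of the narrower peaks of each list on each chromosome, in percent, with exact 95% intervals as bars and the chromosome's share of the length as diamonds. On X the broad share (19.1% and 15.2%) lies below the narrower share (27.7% and 21.0%) in both lists.

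The chromosomes of C. elegans have gene-dense centres and repeat-rich arms that recombine more. Taking the middle 33.3% of each length as the centre, autosomal broad peaks of replicate 1 were more central than narrower ones. Of 266 broad autosomal midpoints 161 were in a centre, 60.5% (exact 95% interval 54.4% to 66.4%), against 961 of 1905 narrower ones, 50.4%. The difference was 10.1 points (odds ratio 1.51, 1.15 to 1.98; two-sided Fisher's exact p = 0.0021, adjusted p = 0.0042). In replicate 2 the shares were 50% of 212 and 48.3% of 1621, a difference of 1.70 points (odds ratio 1.07, 0.80 to 1.44; exact p = 0.66), which did not pass. The difference between the lists was not tested. With the middle 50% in place of the middle 33.3%, replicate 2 had a difference of 7.37 points (Fisher's exact p = 0.035). With broad peaks taken from 8000 bp, the difference of 7.56 points in replicate 1 did not pass (Fisher's exact p = 0.084).

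Values of single chromosomes are given as a description. On I, 39 of 54 broad peaks of replicate 1 were central, 72.2%, beside 45.1% of the narrower peaks, and in replicate 2 the shares were 53.7% and 49.5%. On II they were 61.5% beside 57.5% in replicate 1 and 58.1% beside 52.4% in replicate 2. On III they were 59.6% beside 44.1% in replicate 1 and 42.6% beside 36.9% in replicate 2. On IV the share of broad peaks was 47.8% in replicate 1 and 29.0% in replicate 2, beside 48.2% and 45.6% of narrower peaks. On V 59.6% and 62.8% of broad peaks were central, beside 58.4% and 57.02% of narrower ones. In both lists IV was the only autosome with a lower central share of broad than of narrower peaks. On X, 19 of 63 broad peaks of replicate 1 were central, 30.2%, against 36.3% of narrower peaks, and 9 of 38 in replicate 2, 23.7% against 29.2%. Neither difference on X passed (Fisher's exact test, two-sided, p = 0.41 and 0.58), with odds ratios of 0.76 (0.41 to 1.36) and 0.75 (0.30 to 1.69).

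Over finer classes of width, the share on X was lower in each wider class up to 10 kb in both lists, given here as a description. It was 30.0% below 1 kb, 29.5% at 1 to 2 kb, 22.6% at 2 to 5 kb, 20.7% at 5 to 7 kb and 16.7% at 7 to 10 kb in replicate 1. The same classes gave 23.2%, 22.3%, 17.6%, 15.3% and 13.04% in replicate 2. At 10 to 15 kb it was 21.2% of 85 and 19.05% of 42 peaks, and at 15 kb or more 15.9% of 44 and 13.3% of 15 peaks. The central share of autosomal peaks was lowest below 1 kb, 29.2% and 39.3%. It was 57.0% and 50.6% at 2 to 5 kb, 67.4% and 48.6% at 5 to 7 kb, and 52.9% and 48.3% at 7 to 10 kb. At 10 to 15 kb it was 58.2% and 55.9%, and at 15 kb or more 62.2% and 53.8%. In both lists the central share at 2 to 5 kb thus lay within the range of the broad classes. The share on X at 2 to 5 kb lay within that range in replicate 2 and above it in replicate 1.

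**Figure D3:**
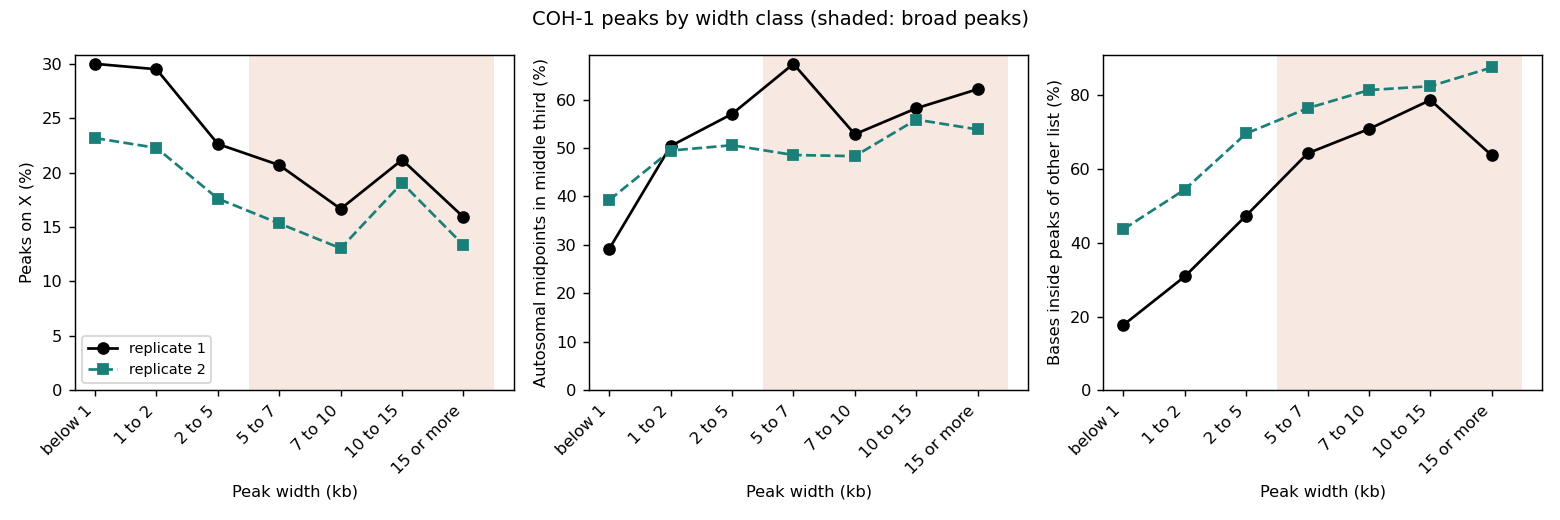
Share of peaks on X, share of autosomal midpoints in the middle 33.3% of the length, and share of bases inside peaks of the other list, all in percent, by class of peak width (kb) for both lists. The broad classes are shaded, and the last class holds 44 peaks of replicate 1 and 15 of replicate 2. The share on X is 30.0% and 23.2% in the narrowest class and 16.7% and 13.04% at 7 to 10 kb.

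Broad peaks had another peak of their list closer by than narrower peaks did. From edge to edge, the median distance was 319 bp for broad and 964 bp for narrower peaks of replicate 1. In replicate 2 these medians were 342 and 772 bp. A peak lay within 2 kb of 254 of 329 broad peaks in replicate 1, 77.2%, against 63.6% of narrower peaks (difference 13.6 points; two-sided Fisher's exact p = 6e-07). In replicate 2 it was 221 of 250, 88.4%, against 65.8% (difference 22.6 points; exact p = 7.68e-15). These p-values at 2 kb are unadjusted and outside the 10 main tests. By width, the shares within 2 kb in replicate 1 were 40% below 1 kb, 60.0% at 1 to 2 kb and 80.2% at 2 to 5 kb. At 5 to 7, 7 to 10, 10 to 15 and 15 kb or more they were 84.5%, 80.95%, 69.4% and 65.9%. The class of 2 to 5 kb thus lay within the range of the broad classes. In replicate 2 it had 72.7%, below 87.9%, 97.1%, 73.8% and 93.3% in the same broad classes. Some gaps were very short: 86 broad peaks of replicate 1 (26.1%) and 53 of replicate 2 (21.2%) had a neighbour within 100 bp, against 12.3% and 14.6% of narrower peaks.

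At 10 kb, the distance used for the main comparison, the classes differed less. Replicate 1 had 87.8% of broad and 84.8% of narrower peaks with a neighbour (3.06 points, odds ratio 1.30, 0.91 to 1.88; two-sided Fisher's exact p = 0.162), and replicate 2 had 95.6% and 87.8% (7.83 points, odds ratio 3.03, 1.63 to 6.23; adjusted p = 0.00027). Strength moved with this result. Within the stronger 50% of each list the difference at 10 kb was -3.44 points in replicate 1 (Fisher's exact p = 0.076) and 2.10 points in replicate 2 (p = 0.278). This cut was not applied at 2 kb.

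Most neighbours of broad peaks were narrower, as are most peaks, since broad ones made up 11.1% and 10.9% of the lists. A broad nearest peak was still more frequent at broad than at narrower peaks. The nearest peak was itself broad for 66 of 329 in replicate 1 (20.1%) and 66 of 250 in replicate 2 (26.4%), against 11.4% and 9.70% for narrower peaks. A peak within 2 kb on both sides was found at 93 broad peaks of replicate 1 and 76 of replicate 2, and on neither side at 75 and 29. Broad peaks lay closer to each other in replicate 2, where 122 of 250 had another broad peak within 10 kb (48.8%), than in replicate 1, with 96 of 329 (29.2%). The median distance between nearest broad peaks was 12.8 and 45.1 kb.

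Joining broad peaks within 10 kb left 277 sites in replicate 1 and 187 in replicate 2, of which 233 and 128 held 1 broad peak. The largest group was I:9090925-9132491 in replicate 1, with 4 broad peaks over 41.6 kb. Groups of 3 included X:4493112-4535408 in replicate 1 (42.3 kb) and I:7547563-7580989 in replicate 2 (33.4 kb). Over 203 bins of 500 kb, the numbers of broad peaks in the lists had Spearman's rho = 0.69, given as a description, since bins share the overall density of peaks. Broad peaks of both lists were present in 104 bins, and neither list had one in 60. The fullest bin was I:7500001-8000000, with 7 broad peaks in each list.

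The next question was what the other list held at a broad peak. At least 1 bp was shared with a replicate 2 peak by 304 of 329 broad peaks of replicate 1 (92.4%), where all its peaks gave 48.2%. For replicate 2 it was 233 of 250 (93.2%), where all its peaks gave 70.2%. A wide peak meets others more easily, so the shares of bases and of midpoints are better measures. Of the bases in broad peaks, 70.2% in replicate 1 and 80.8% in replicate 2 lay inside peaks of the other list, against 37.8% and 61.5% of the bases in narrower peaks.

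Breadth itself recurred. The midpoint of a broad replicate 1 peak fell inside a broad replicate 2 peak in 138 of 329 cases, 41.9% (exact 95% interval 36.6% to 47.5%), against 135 of 2635 narrower peaks, 5.12%, and 9.21% of all peaks. The difference was 36.8 points (odds ratio 13.4, 10.01 to 17.8; two-sided Fisher's exact p = 4.34e-69, adjusted p = 4.34e-68). In the other direction it was 174 of 250, 69.6% (63.5% to 75.2%), against 390 of 2052 narrower peaks, 19.01%, and 24.5% of all peaks. That difference was 50.6 points (odds ratio 9.74, 7.23 to 13.2; Fisher's exact p = 1.92e-58, adjusted p = 9.59e-58). Among the stronger 50% of each list the differences were 34.5 and 44.01 points, a cut that does not match the classes in score. By overlap, 2.08% of replicate 1 and 10.8% of replicate 2 peaks below 1 kb met a broad peak of the other list. At 2 to 5 kb it was 10.6% and 34.1%, and at 5 to 7 kb 32.8% and 62.9%. Broad midpoints also met a peak of any width more often, 67.5% against 36.0% in replicate 1 and 86.4% against 60.3% in replicate 2. The 2 directions rest on the same shared sites, and the tests count each peak as independent. Where a midpoint met a peak, that peak had a median width of 6111 bp at broad and 2016 bp at narrower peaks of replicate 1, and of 9790 and 2850 bp for replicate 2.

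The lists differed in how they divided a broad site. A broad peak of replicate 2 met exactly 1 peak of replicate 1, itself broad, in 125 of 250 cases, 50% (exact 95% interval 43.6% to 56.4%). A broad peak of replicate 1 did so in 70 of 329, 21.3% (16.98% to 26.1%). Several peaks of the other list lay at 191 broad peaks of replicate 1, 58.1% (52.5% to 63.4%), and at 88 of replicate 2, 35.2% (29.3% to 41.5%). Such shares rose with width, which chose the members, up to 15 kb. At 2 to 5, 5 to 7 and 10 to 15 kb they were 11.7%, 40.5% and 72.9% in replicate 1. The same classes of replicate 2 gave 14.4%, 29.0% and 47.6%. In replicate 1, 98 of these 191 met pieces that were all narrower than 5 kb, and in replicate 2, 30 of 88. At 80 broad peaks of replicate 1 there were 3 or more pieces, and at 21 of replicate 2. The median gap between pieces was 411 bp where they were of replicate 2 and 232 bp where they were of replicate 1. Pieces overlap the same broad peak by definition, which limits these gaps.

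**Figure D4:**
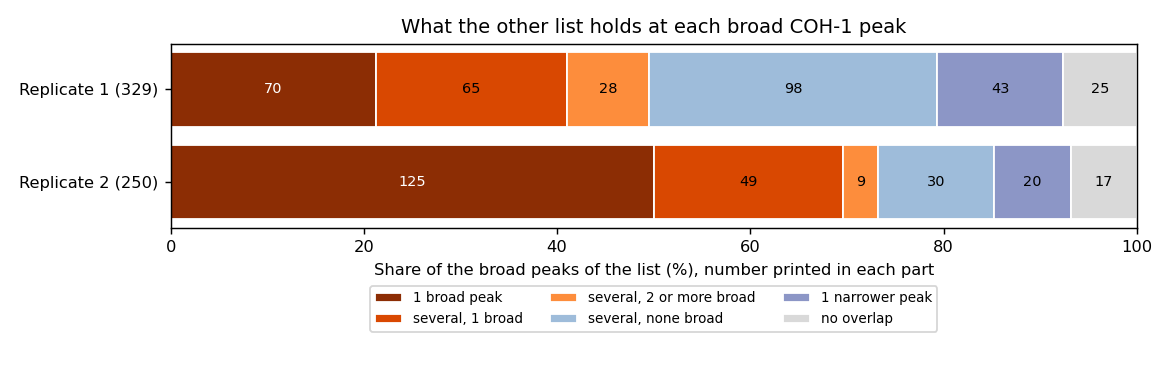
Broad peaks of each list divided by what the other list holds there, in percent of the broad peaks, with the number in each part. A partner of 1 broad peak is found at 125 of 250 peaks of replicate 2 and 70 of 329 of replicate 1, and several narrower pieces at 30 and 98.

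The most divided broad peak was X:4515204-4535408 of replicate 1, 20.2 kb wide with a score of 76.7. It met 9 peaks of replicate 2, of which X:4524444-4529792 was broad (5.35 kb, score 2399) and the other 8 were 0.999 to 1.68 kb wide with scores of 55.5 to 336. Together they took up 76.6% of its bases. The peak V:20406595-20425227 of replicate 1 (18.6 kb, score 87.3) met 7 pieces, all narrower than 5 kb, the strongest of which was V:20418344-20422696 with a score of 2497. At both sites a score below the median of replicate 1 stood over a replicate 2 peak that scored far above the median of its list. The third, IV:13022356-13037712 (15.4 kb, score 1163), met 6 pieces over 18.2 kb. In replicate 2 the most divided were V:13377574-13390083 (12.5 kb) and I:1684057-1692009 (7.95 kb, score 3100), with 4 narrower pieces of replicate 1 each.

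A few broad peaks had a partner of their own. In 31 cases a broad peak of each list met the other and nothing else, 9 of them on X. Their common part was 88.8% of their joint span in the median (quartiles 81.5% and 96.4%), and their ends differed by a median of 283 bp and by up to 12725 bp. The closest was X:12903261-12908280 in replicate 1 and X:12903237-12908277 in replicate 2, with scores of 1035 and 3100 and 99.5% in common. The widths of these pairs had rho = 0.78 across pairs and the scores 0.21, given as descriptions. For the scores, 12 of the 31 replicate 2 peaks were tied at exactly 3100. Replicate 1 was the wider in 11 of the 31.

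Broad peaks that met nothing in the other list numbered 25 in replicate 1, 7.60% (4.98% to 11.01%), and 17 in replicate 2, 6.80% (4.01% to 10.7%). Among narrower peaks it was 1510 of 2635 and 668 of 2052, and of all peaks 48.2% and 70.2% did overlap. A wide peak misses others less easily by its length alone. Of the broad peaks without overlap, 6 of 25 and 1 of 17 were on X, beside 483 of 1510 (31.99%) and 109 of 668 (16.3%) of the narrower peaks without overlap. Among the widest were 3 of replicate 1. The peak II:10538256-10566346 lay 32.8 kb from the nearest peak of replicate 2. V:10707309-10732793 and X:6731710-6755006 (23.3 kb, score 935) lay 0.873 and 0.117 kb from one, and 65.7 and 38.7 kb from the next on the other side. In replicate 2 the widest was V:10468007-10481211 (13.2 kb, score 355), 6.55 kb from the nearest peak of replicate 1.

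Some broad peaks without overlap shared a stretch free of peaks of the other list. Sharing was counted within each class, and the classes differ much in number, so their shares are not a like comparison. In replicate 2, 10 of the 17 (58.8%) came as 5 pairs, each pair in the same stretch without a replicate 1 peak. Of the narrower peaks of replicate 2 without overlap, 340 of 668 (50.9%) shared such a stretch with another. The neighbours I:7547563-7559282 and I:7559662-7571611, 11.7 and 11.95 kb wide with scores of 143 and 602, lay in such a stretch of 27.3 kb. In replicate 1, 2 of the 25 shared a stretch, X:6239953-6244961 and X:6245104-6261524, as did 1182 of 1510 narrower peaks without overlap (78.3%). A further 28 broad peaks of replicate 1 and 4 of replicate 2 were covered over 25% or less of their bases. More than 90% was covered in 127 (38.6%) and 133 (53.2%).

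**Figure D5:**
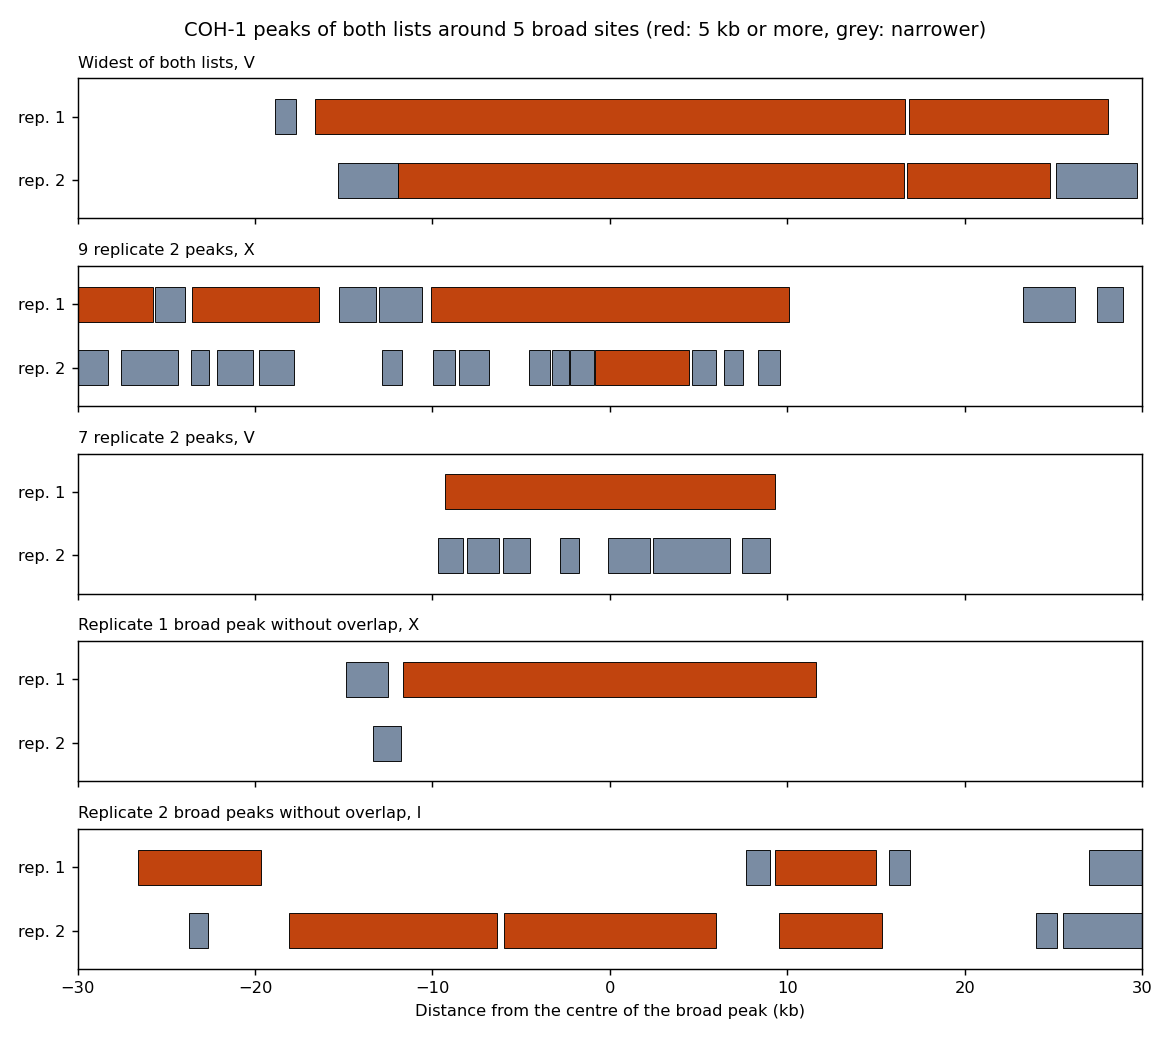
Peaks of both lists around 5 broad sites, drawn by distance (kb) from the centre of the broad peak named in each panel, with broad peaks in red and narrower ones in grey. The panels show the shared widest site, broad peaks of replicate 1 over 9 and 7 peaks of replicate 2, and broad peaks of replicate 1 and of replicate 2 without overlap.

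When overlapping broad peaks of both lists were joined, 387 broad loci over 3.93 Mb resulted. Broad peaks of both lists made up 154 (39.8%), while 166 were broad in replicate 1 only and 67 in replicate 2 only. At 141 of the 166 and 50 of the 67 the other list had a narrower peak. The 154 loci broad in both lists had a median width of 13126 bp and covered 2.05 Mb. They numbered 30 on III, 27 on X, 26 each on I and V, 23 on II and 22 on IV, which is 2.18 per Mb on III, 1.53 on X and 1.25 on V. On X lay 17.5% of them (exact 95% interval 11.9% to 24.5%), where X has 17.6% of the length. In the autosomal centres were 52.8% (43.7% to 61.7%) of those broad in both lists, 68.5% (59.7% to 76.3%) of those broad in replicate 1 only and 46.6% (33.3% to 60.1%) of those broad in replicate 2 only.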

How the data were processed

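Per the submitters' processing notes, BWA was the aligner and ce10 the build. The authors deposited 1 peak list per ChIP library, called with MACS on WormBase WS220, per the file headers and source column, so replicates were not pooled. The deposited score is the value MACS attached to a peak, and its scale is not named. Versions, control and threshold were not given in the sources used here.

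Peaks of 5000 bp or more were taken as broad. The end of the last peak in the lists stood for each chromosome's length (99.998 Mb together). Shares of broad and narrower peaks within a list were compared with Fisher's exact test, two-sided, threshold 0.05, with Benjamini-Hochberg adjustment over 10 tests (5 measures in 2 lists) or 6 chromosomes. Intervals on shares are exact (Clopper-Pearson), those on odds ratios are conditional exact, both at 95%, and cover counting error only. Computations used Python 3.11.15, numpy 2.4.6, scipy 1.17.1, pandas 2.3.3 and matplotlib 3.10.9 and were checked on simulated lists.

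Members, measures and alternatives were chosen with earlier results of these data known. Named regions follow a rule: the 10 widest peaks of each list, the widest of each chromosome, the 3 widest without overlap, the 3 with the most pieces, and the 2 on each side of 5000 bp. Groups of broad peaks, bins, matched pairs, further peaks without overlap and weak broad peaks were picked after their values were seen. Alternatives were widths of 4000 or 8000 bp, the widest 10%, the stronger 50% by score, the middle 50%, neighbours within 5 or 2 kb, merging within 10 or 1 kb, and other overlap rules.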

Additional observations from a re-analysis of the deposited data

How the results depend on the processing

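No paired analysis was possible because no values of the input libraries, numbered like the ChIP libraries, were analysed. Values are differences in percentage points, broad minus narrower, with unadjusted two-sided Fisher's exact p against 0.05. Of 74 alternatives, 56 kept direction, side of the threshold or size. The cause of the other 18 changes was not tested. At 8000 bp the number of broad peaks was 179 and 90, and the share of broad peaks that overlap a broad peak of the other list was 35.8% in replicate 1, against 49.5%. At that width the difference on X in replicate 2 was -3.86 (exact p = 0.425), the autosomal central difference in replicate 1 was 7.56 (exact p = 0.084), that on X turned to 3.22 (exact p = 0.724), and the difference in neighbours turned to -1.41 in replicate 1 (exact p = 0.589) and was 1.44 in replicate 2 (exact p = 0.865). At 4000 bp the difference in neighbours in replicate 1 was 4.20 (exact p = 0.023). Among the stronger 50%, the X difference in replicate 2 was -4.10 (exact p = 0.163), and that in neighbours was -3.44 in replicate 1 (exact p = 0.076) and 2.10 in replicate 2 (exact p = 0.278). Merged within 10 kb, the X difference in replicate 2 was -2.18 (exact p = 0.588). With the middle 50%, the central difference on X turned to 7.50 in replicate 1 (exact p = 0.294) and 2.83 in replicate 2 (exact p = 0.866), and the autosomal one in replicate 2 was 7.37 (exact p = 0.035). Neighbours within 5 and 2 kb differed by 5.06 and 13.6 in replicate 1 (exact p = 0.042 and 6e-07). All 12 alternatives for a broad peak of the other list at the midpoint kept direction and side of the threshold, from 30.6 to 57.1. Leaving out 1 list returns the main value of the other, so it is no further check. Without replicate 1 and without replicate 2, in this order, it was -5.80 and -8.55 on X and 1.70 and 10.1 in autosomal centres. In the same order it was -5.55 and -6.14 in the centre of X and 7.83 and 3.06 for neighbours. It was 50.6 and 36.8 for the midpoint, and 73.2% and 49.5% for the broad partner. Without read counts, no limit set by depth can be given.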
